A study of Mus musculus with 4 samples.

Results

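The genes described here are 8 transcription factors of the GATA, T-box and coelomic mesoderm groups, *Gata4*, *Gata5*, *Gata6*, *Tcf21*, *Osr1*, *Tbx2*, *Tbx3* and *Tbx18*, chosen by name out of the 28692 genes listed in the files. All 8 were listed in every library. They were measured by single-cell RNA sequencing of untreated mouse embryos at E12.5, in 2 libraries of small intestine (SI) and 2 of large intestine including the cecum (LI). The mice carried a yellow fluorescent protein (EYFP) on a C57BL/6 background, and each of 2 experiments pooled 3 to 5 embryos, so a library stands for a pool and not for an animal. The sort took live YFP+ cells with β1 integrin and removed leukocytes by CD45, red cells by Ter119, endothelium by CD31 and epithelium by EpCAM. Both regions therefore shared genotype, stage and sort, and differed in the piece of gut dissected. Whether they also shared a kit is not known, since the labels name a 3′ and a 5′ kit and tie neither to a library.

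GATA4, GATA5 and GATA6 are zinc finger proteins that bind the letters GATA and act in heart, endoderm and the mesoderm that lines the coelom. The coelomic lining of the gut becomes the mesothelium, and in several organs it also sheds cells into the tissue beneath. TCF21 is a basic helix-loop-helix factor of the epicardium and of lung, kidney and spleen mesenchyme, and OSR1 is a zinc finger factor of lateral plate and intermediate mesoderm. TBX2 and TBX3 are closely related T-box factors that mostly repress their targets, and TBX18 is a T-box factor best known from the epicardium and the mesenchyme around the ureter.

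The libraries held between 5151 and 6881 cell barcodes and between 31630548 and 62886525 unique molecular identifiers (UMIs, each a captured transcript), and pairs of libraries shared 8 to 15 barcodes. After filtering, 22094 cells were kept. LI replicate 1 stood apart in depth, with a median of 4219.5 UMIs per cell against 8384 to 8834 in the other 3 libraries. Cells were clustered without the 8 genes and without their gene families, and clusters were named from marker genes as mesothelial-like (1314 cells), neural-like (954 cells), smooth muscle cell (SMC)-like (5441 cells) and fibroblast (FB)-like (10370 cells). The clustering was sensitive to the numerical library it ran on, and in a repeat on another one 99.9% of mesothelial-like, 98.1% of FB-like and 100% of neural-like cells kept their class, but only 79.0% of SMC-like cells. The mesothelial markers summed to between 2266 and 2739 counts per 1000000 UMIs (CPM) in mesothelial-like cells and to at most 133 CPM in the other named classes, and the neural markers to between 2135 and 3429 CPM in neural-like cells and at most 151 CPM elsewhere. The SMC markers ranged from 1584 CPM in SMC-like cells of LI replicate 1 to 10358 CPM in those of SI replicate 2, and overlapped the 1015 to 1817 CPM of FB-like cells. The FB markers did not single out FB-like cells, since they summed to between 971 and 1523 CPM there and to between 1313 and 3360 CPM in mesothelial-like cells. The FB-like class is clusters 0, 2 and 4, which had FB markers and no leading marker of another cell type. A further 4015 cells stayed unnamed. Among them were cluster 3 (2006 cells) and cluster 6 (1217 cells), in which FB markers were also detected. The levels given are CPM of one gene, which serve to compare cell groups and libraries for that gene and not one gene with another.

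The 8 genes differed widely in how often they were captured. *Tcf21* was found with 36328 UMIs in 57.1% of kept cells, *Tbx3* with 7111 UMIs, *Tbx2* with 5022, *Osr1* with 1429 and *Gata6* with 1390. *Tbx18* had 77 UMIs in all, *Gata5* 67 and *Gata4* 44, and most comparisons could not test these last 3, which fell below the filter on low counts. The RefSeq table of promoters held an entry for 3 of the 8, *Tcf21*, the one with the most UMIs, and the sparse *Gata5* and *Tbx18*. Their sequence on the gene's own strand, from 250 to 51 bases before the RefSeq start (build GRCm38.p6), is shown because these are the members with a sequence at both ends of that range, with every E-box (CANNTG, both strands alike) in capitals. The windows are chr10:22820194-22820393 for *Tcf21*, chr2:180334730-180334929 for *Gata5* and chr9:87731311-87731510 for *Tbx18*, all on the minus strand.
Tcf21: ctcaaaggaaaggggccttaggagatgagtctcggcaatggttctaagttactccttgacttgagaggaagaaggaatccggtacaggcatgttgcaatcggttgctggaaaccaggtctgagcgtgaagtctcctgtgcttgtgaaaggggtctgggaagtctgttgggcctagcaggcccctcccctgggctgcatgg
Gata5: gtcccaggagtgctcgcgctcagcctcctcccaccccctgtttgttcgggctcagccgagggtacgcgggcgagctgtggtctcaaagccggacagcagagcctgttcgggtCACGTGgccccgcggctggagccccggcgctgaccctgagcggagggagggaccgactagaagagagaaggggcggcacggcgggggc
Tbx18: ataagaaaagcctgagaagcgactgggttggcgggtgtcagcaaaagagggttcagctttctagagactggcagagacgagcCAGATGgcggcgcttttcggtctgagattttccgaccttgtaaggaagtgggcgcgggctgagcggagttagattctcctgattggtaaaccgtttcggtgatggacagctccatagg

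The *Tcf21* window held 4 CpG pairs, the *Tbx18* window 12 and the *Gata5* window 19. Of the 32851 promoters in the table, 54.2% held at least as many CpG pairs over the same 200 bases as *Tcf21*, 24.3% as many as *Tbx18* and 10.9% as many as *Gata5*. The *Gata5* and *Tbx18* windows each held 1 E-box, as did 59.0% of all promoters at least once. None of the 3 windows held GATA, found in 48.1% of promoters, or the T-box letters AGGTGTGA, found in 0.922% (both searched on both strands).

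*Gata6*, the member of the GATA group with the most UMIs, was highest of the named classes in mesothelial-like cells in both regions. In mesothelial-like cells the LI libraries held 53.3 and 70.5 CPM and the SI libraries 63.6 and 82.7 CPM (here and below, replicate 1 comes before replicate 2). In FB-like cells the LI libraries held 7.24 and 3.27 CPM and the SI libraries 5.42 and 14.6 CPM, so that every mesothelial-like value lay above every FB-like value. SMC-like cells held 1.83, 0.821, 0.162 and 0.0584 CPM, from 9, 7, 2 and 1 UMIs, and neural-like cells gave 1, 0, 0 and 1 UMIs. *Gata6* was 9.93-fold higher in mesothelial-like than in FB-like cells (log2 fold change 3.31 ± 0.26 SE, adjusted p = 1.24e-05, edgeR quasi-likelihood test with Benjamini-Hochberg adjustment over all genes tested, library as a block). It fell by 4.03 ± 0.63 on the log2 scale from FB-like to SMC-like cells (adjusted p = 0.00388), a call that held while the size moved to −4.89 without LI replicate 1, −4.64 without LI replicate 2 and −2.76 without SI replicate 2. In SMC-like cells it stood at 1.06% of its mesothelial-like level, where the 12 mesothelial markers stood at a median of 0.381% and a range of 0.0546 to 24.1%. By pooled counts its level in neural-like cells was 1.83% of that in FB-like cells, with an exact 95% interval of 0.221 to 6.64% that covers counting error only.

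After thinning every cell to 3000 UMIs, which left out 102 shallower mesothelial-like and 822 FB-like cells, *Gata6* was detected in 17.6% ± 3.17 (SD, n = 4 libraries) of mesothelial-like cells and in 1.80% ± 1.12 of FB-like cells. Without thinning these shares were 36.9% ± 13.4 and 4.13% ± 2.41. No neural-like cell of the 932 thinned ones held a *Gata6* UMI. *Gata6* lies on chromosome 18 (mm10, 11052064 to 11085635, plus strand), and its exons overlap those of the antisense gene *1010001N08Rik*. How reads of overlapping antisense genes were told apart is not given in the sources used here, which also bears on *Gata5* with *Gata5os* and on *Tbx3* with *Tbx3os1*.

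*Gata5* and *Gata4* were close to the limit of detection in all named classes. *Gata5* (chromosome 2, 180325133 to 180334699, minus strand) gave 8 and 3 UMIs in mesothelial-like cells of the LI libraries and 3 and 1 in those of the SI libraries, and 12, 6, 8 and 8 UMIs in the more numerous FB-like cells. In CPM this was 2.66, 1.17, 1.36 and 0.641 CPM in mesothelial-like cells against 0.820, 0.276, 0.383 and 0.363 CPM in FB-like cells, higher in the mesothelial-like cells of 4 of 4 libraries. The ranges of both classes overlapped, and the gene did not pass the low-count filter for the test. Without SI replicate 2, the library with the fewest mesothelial-like cells, it passed and was called, as it was without the filter. *Gata4* (chromosome 14, 63198922 to 63271692, minus strand) gave 40 of its 44 UMIs in a single library, SI replicate 1, against 0 UMIs in LI replicate 1 and 2 each in LI replicate 2 and SI replicate 2. In the mesothelial-like class it was detected in 4 of the 270 cells of SI replicate 1, with 10 UMIs, and in no cell of the other 3 libraries.

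*Tcf21* was found throughout the mesenchyme, and was lower in mesothelial-like cells and lowest in neural-like cells. FB-like cells held 53.1 and 210.3 CPM in LI and 195 and 269.8 CPM in SI, and SMC-like cells 72.1 and 285 CPM in LI and 267 and 414 CPM in SI. In mesothelial-like cells the levels were 33.0 and 69.0 CPM in LI and 64.0 and 80.8 CPM in SI. LI replicate 1 was the lowest library in all these classes, and within each of the 4 libraries the order was SMC-like, FB-like, mesothelial-like. *Tcf21* was 1.45-fold higher in SMC-like than in FB-like cells (log2 0.53 ± 0.05 SE, adjusted p = 0.000276) and fell by 1.42 ± 0.16 on the log2 scale from FB-like to mesothelial-like cells (adjusted p = 0.000102), both by edgeR with library as a block. Neural-like cells held 1.02 and 3.75 CPM in LI and 3.09 and 4.39 CPM in SI, a fall of 5.81 ± 0.12 on the log2 scale from FB-like cells (adjusted p = 8.45e-08). That was 1.68% of the FB-like mean, and the 6 FB markers measured the same way stood at 0.779 to 7.14% in neural-like cells, with a median of 1.04% and the top of the range set by *Col1a2*. The part of RNA from other cells in the neural-like *Tcf21* values was not tested.

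The gap between both LI libraries was much larger for *Tcf21* than for most genes. LI replicate 2 exceeded LI replicate 1 by 3.96-fold in FB-like cells, 3.96-fold in SMC-like cells and 2.09-fold in mesothelial-like cells, whereas SI replicate 2 exceeded SI replicate 1 by 1.38-fold, 1.55-fold and 1.26-fold. Of 3966 genes with 50 CPM or more in a library of FB-like cells, 7, *Tcf21* among them, showed an excess of LI replicate 2 over LI replicate 1 as large as that. The labels name both a 3′ and a 5′ kit without tying either to a library, so the part of the kit in this gap was not tested. At 3000 UMIs per cell *Tcf21* was detected in 37.4% ± 15.6 (SD, n = 4) of FB-like, 46.6% ± 20.1 of SMC-like, 16.7% ± 6.04 of mesothelial-like and 0.662% ± 0.564 of neural-like cells. *Tcf21* lies on chromosome 10 (22817281 to 22820174, minus strand).

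*Osr1* was highest of the named classes in FB-like cells and was sparse in the others. FB-like cells held 8.13 and 12.7 CPM in LI and 8.72 and 28.5 CPM in SI, with SI replicate 2 high. SMC-like cells held 1.83 and 1.17 CPM in LI and 0.567 and 1.46 CPM in SI. Mesothelial-like cells gave 1, 0, 0 and 3 UMIs and neural-like cells 0, 0, 0 and 1 UMI, against 119, 275, 182 and 629 UMIs in FB-like cells. Of all *Osr1* UMIs, 84.3% lay in FB-like cells, and no value of another named class reached the lowest FB-like library. *Osr1* fell by 3.70 ± 0.25 on the log2 scale from FB-like to SMC-like cells (edgeR, adjusted p = 0.000113), and the change was −4.38 when the clustering was repeated. It was also called lower in mesothelial-like and in neural-like cells (adjusted p = 2.15e-05 and 4.94e-06), where so few UMIs remained that the fitted fold depends on the prior count. By pooled counts, the level in mesothelial-like cells was 2.82% of the FB-like level (exact 95% interval 0.767 to 7.24%) and that in neural-like cells 0.465% (0.0118 to 2.59%), again for counting error only. Compared with FB-like cells, mesothelial-like cells thus held more *Gata6* and less *Osr1* in 4 of 4 libraries. *Osr1* lies on chromosome 12 (9570116 to 9581500, plus strand).

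*Tbx2* was highest in neural-like cells, whose leading genes *Foxd3* and *Sox10* are known from progenitors of the enteric nervous system. Neural-like cells held 86.4 and 115 CPM in LI and 258 and 265 CPM in SI. FB-like cells held 12.4, 16.5, 18.0 and 22.2 CPM, mesothelial-like cells 4.33, 3.90, 4.54 and 12.2, and SMC-like cells 1.02, 0.352, 1.22 and 0.525. Each neural-like library thus lay above every library of every other named class. *Tbx2* was 10.5-fold higher in neural-like than in FB-like cells (log2 3.39 ± 0.16 SE, edgeR, adjusted p = 2.71e-06), and it fell from FB-like cells by 1.54 ± 0.22 on the log2 scale in mesothelial-like cells (adjusted p = 0.000485) and by 4.57 ± 0.24 in SMC-like cells (adjusted p = 5.59e-05). In SMC-like cells *Tbx2* stood at 0.429% of its neural-like level, where the 12 neural markers stood at a median of 0.366% and a range of 0.0161 to 17.8%, and the part of RNA from other cells was not tested. *Tbx2* lies on chromosome 11 (85832551 to 85841948, plus strand).

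*Tbx3*, the close relative of *Tbx2*, was likewise highest of the named classes in neural-like cells but was spread more widely through the mesenchyme. Neural-like cells held 99.1 and 108 CPM in LI and 135 and 166 CPM in SI. FB-like cells held 6.15, 8.47, 45.8 and 34.7 CPM, SMC-like cells 6.29, 10.8, 41.7 and 24.1, and mesothelial-like cells 4.33, 5.06, 15.9 and 7.05. *Tbx3* was 7.32-fold higher in neural-like than in FB-like cells (log2 2.87 ± 0.41 SE, edgeR, adjusted p = 0.000844) and fell by 1.37 ± 0.25 on the log2 scale in mesothelial-like cells (adjusted p = 0.00217). Between SMC-like and FB-like cells the log2 difference was −0.12 ± 0.13 (adjusted p = 0.545), where that of *Tbx2* was −4.57. With every cell outside the other classes counted as FB-like it was −0.69 (adjusted p = 0.000991), and without SI replicate 2 it was 0.054. That wider class takes in unnamed cluster 9, led by the neuronal genes *Cartpt*, *Stmn2* and *Tubb3*, with 1635 *Tbx3* UMIs in 285 cells. The same wider FB-like class gave 2.23 in neural-like cells and −1.97 in mesothelial-like cells for *Tbx3*, both still called. *Tbx3* lies on chromosome 5 (119670669 to 119684724, plus strand).

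*Tbx18* was not detected in mesothelial-like cells, with 0 UMIs in 4 of 4 libraries, although its protein is a marker of the epicardium, the mesothelium of the heart. A count of 0 allows up to 3 UMIs in a library, which is between 0.999 and 1.92 CPM in these cells. FB-like cells gave 2, 1, 3 and 3 UMIs, SMC-like cells 0, 3, 1 and 1, and neural-like cells 0, 0, 0 and 1. These counts did not pass the low-count filter between classes, and without the filter *Tbx18* was tested and not called. *Tbx18* lies on chromosome 9 (87702800 to 87731260, minus strand).

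**Figure D1:**
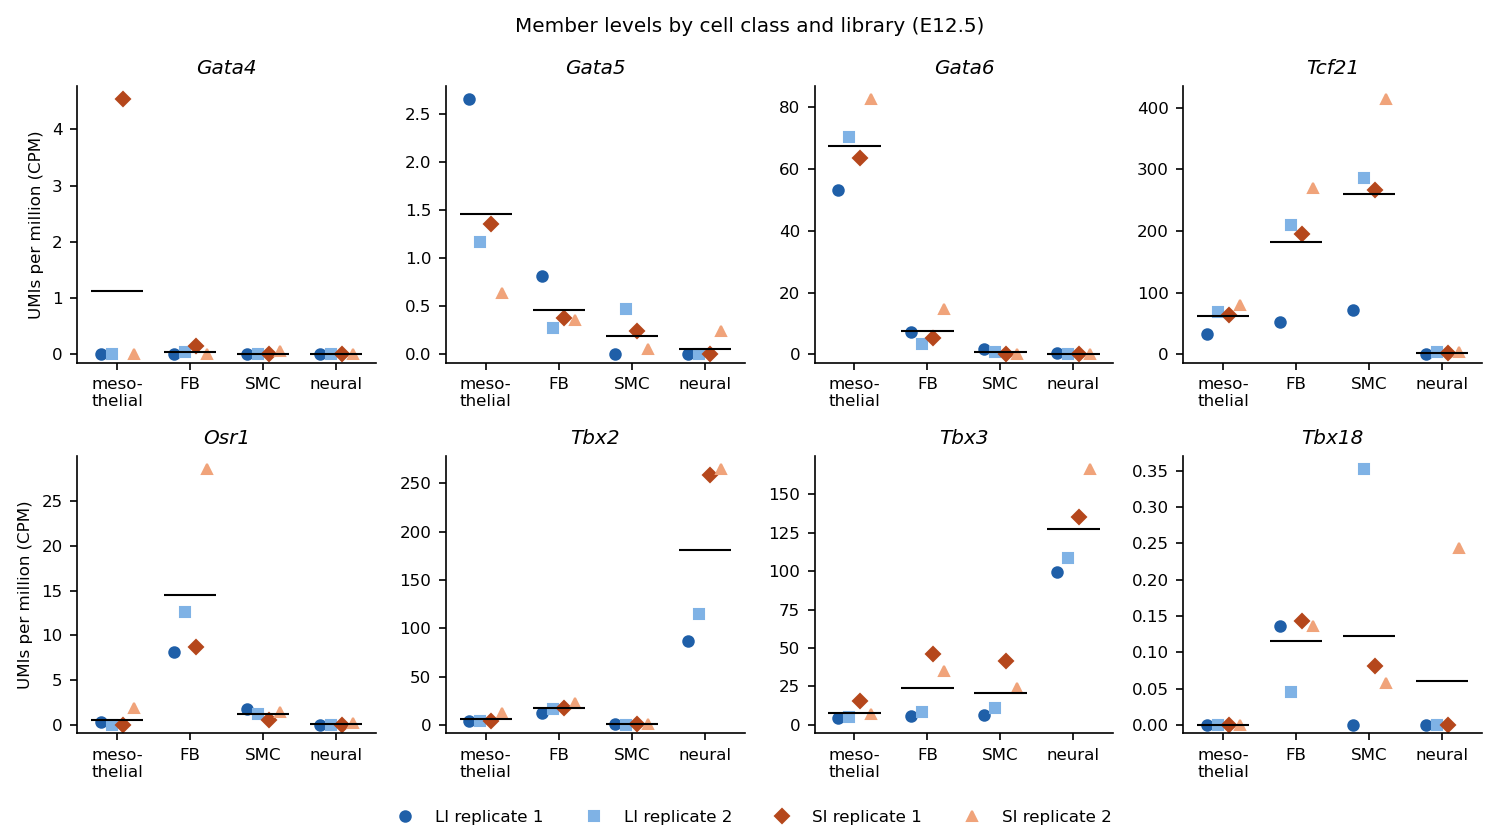
Level of each of the 8 genes (vertical axis, CPM, a scale of its own for each gene) in mesothelial-like, FB-like, SMC-like and neural-like cells, with 1 point for each library and a line at the mean of 4 libraries. *Gata6* was highest in mesothelial-like cells (53.3 to 82.7 CPM), *Osr1* in FB-like cells (8.13 to 28.5 CPM), *Tbx2* and *Tbx3* in neural-like cells, and *Tcf21* in FB-like and SMC-like cells with LI replicate 1 lowest.

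Of the 5 genes that passed the low-count filter, 5 were called between mesothelial-like and FB-like cells (1 higher and 4 lower), where 37.7% of the 12468 genes tested were called, 19.5% higher and 18.2% lower. Between SMC-like and FB-like cells 4 of 5 were called (1 higher and 3 lower) against 24.0% of 12928 genes, 11.8% higher and 12.3% lower. Between neural-like and FB-like cells 5 of 5 were called (2 higher and 3 lower) against 51.8% of 12271 genes, 25.1% higher and 26.6% lower. The median log2 fold change of the 5 genes was −1.42, −3.70 and −5.59 in these comparisons, and that of all genes tested was −0.030, 0.016 and −0.015. The neural-like median is the fitted value of *Gata6*, which rests on 2 UMIs there and depends on the prior count. These calls rest on genes that passed the filter in part because 1 class was high, so the counts describe the genes and are no measure of a set.

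**Figure D2:**
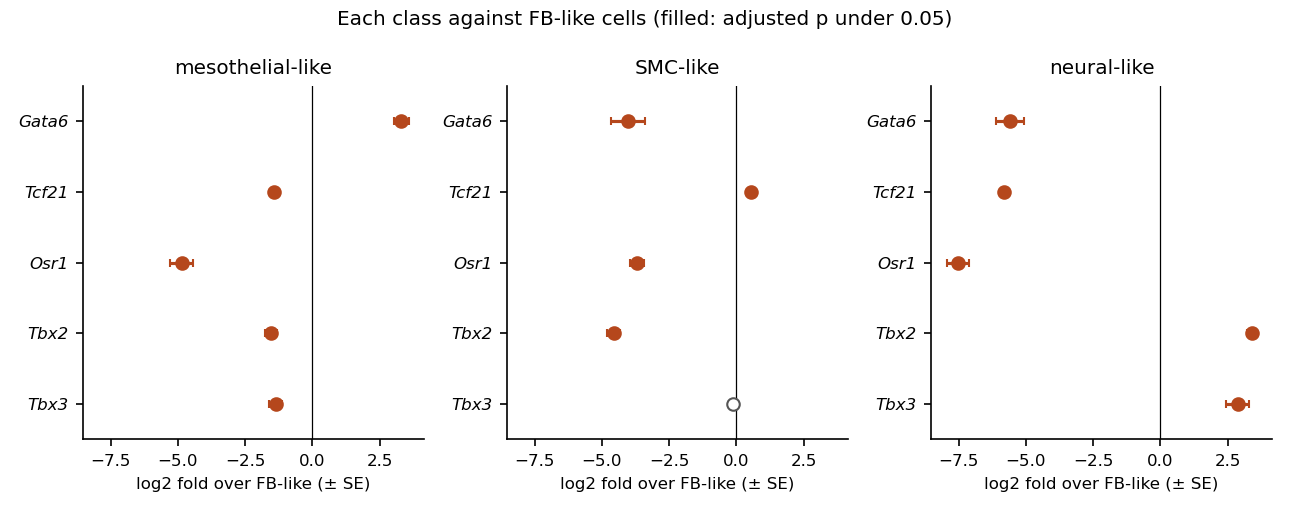
Log2 fold change over FB-like cells (horizontal axis, bars ± SE over 4 libraries in a fit with library as a block) for the 5 genes tested, in mesothelial-like, SMC-like and neural-like cells. Filled points passed an adjusted p of 0.05. *Gata6* was the only one of the 5 that was higher in mesothelial-like cells, at 3.31, and *Tbx3* in SMC-like cells the only open point.

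Within the FB-like class the genes were not evenly spread. Cluster 4, led by *Anxa2*, *Tac2*, *Wnt4* and *Slit2*, was the highest of the 3 FB-like clusters for *Gata5*, *Gata6*, *Osr1* and *Tbx2* in 4 of 4 libraries. For *Gata5* cluster 4 held few UMIs, 3 and 5 in LI and 5 and 8 in SI. For *Gata6* it held 31.9 and 11.3 CPM in LI and 21.7 and 51.0 CPM in SI, whereas cluster 0, the largest FB-like cluster, held 2.54, 1.53, 3.48 and 1.91 CPM. For *Tbx2* cluster 4 was even across libraries, with 65.8, 57.5, 53.2 and 59.5 CPM, and cluster 0 held 3.94, 11.5, 13.8 and 11.1 CPM. For *Osr1* cluster 4 held 33.4, 16.3, 15.2 and 49.0 CPM against 5.33, 15.8, 11.8 and 28.4 CPM in cluster 0, a gap that was small in LI replicate 2. *Gata6*, highest of the named classes in mesothelial-like cells, and *Osr1*, nearly undetected there, were thus both high in the same mesenchymal cluster. At 3000 UMIs per cell cluster 4 had *Gata6* in 6.94% ± 3.84 (SD, n = 4), *Osr1* in 6.77% ± 2.99 and *Tbx2* in 14.1% ± 2.08 of its cells.

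The FB-like levels of *Gata6* and *Tbx2* rested largely on that cluster. With cluster 4 left out of the FB-like class (chosen after the data were seen, since the cluster's name changed between runs of the clustering), the log2 difference of mesothelial-like over FB-like cells moved from 3.31 to 4.90 for *Gata6*, and that of *Tbx2* moved from −1.54 to −0.44 and was no longer called (adjusted p = 0.345). Without it *Gata6* stood at −2.14 in SMC-like cells relative to FB-like cells, and *Tbx2* at −3.57 in SMC-like and 4.47 in neural-like cells, all still called. *Gata6* was also still called lower in neural-like cells, where it had 2 UMIs in all and its fitted fold depends on the prior count.

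*Tcf21* in cluster 4 did not stand above the other FB-like clusters in most libraries, at 47.4 and 226 CPM in LI and 132 and 201 CPM in SI, and *Tbx3* did so in none, at 7.52, 6.32, 34.7 and 27.8 CPM. Since the clusters were built from the same cells, these differences are a description and carry no test, although none of the 8 genes was among the 1954 clustering genes. Of the 1700 cluster 4 cells thinned to 3000 UMIs, 563 held *Tcf21* and 127 held *Osr1*, and 59 held both, where the product of both shares summed over libraries came to 42.3 cells. *Tbx2* and *Tbx3* were found together in 13 cells of cluster 4, with a product of 13.6 cells.

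**Figure D3:**
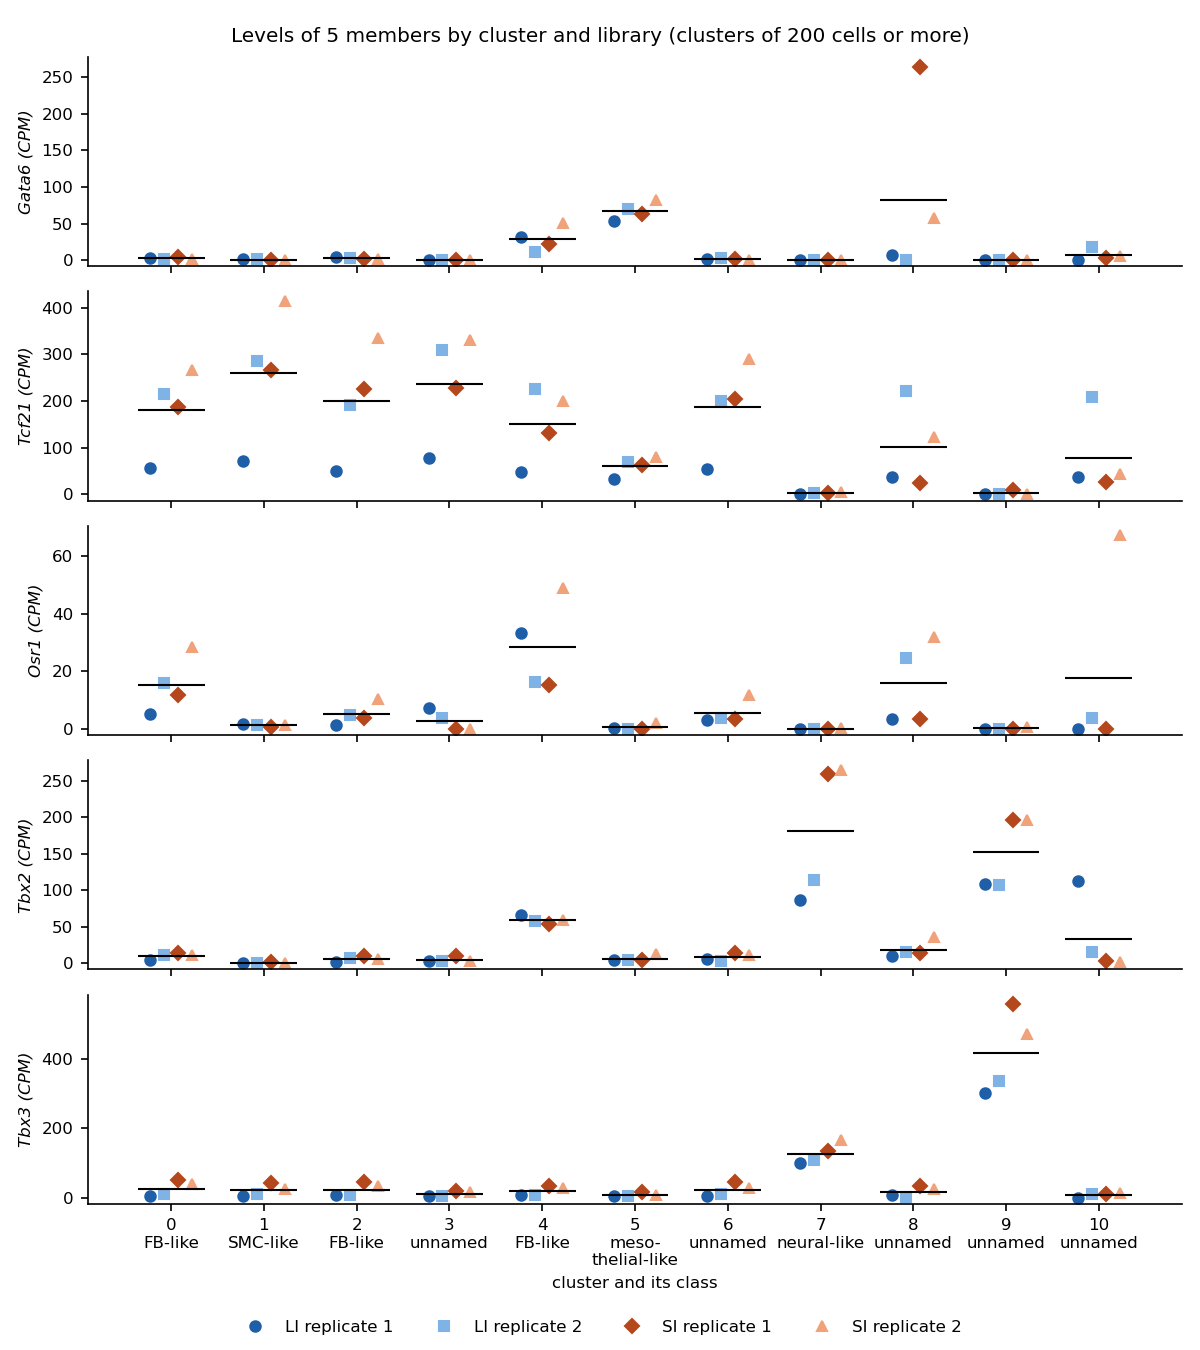
Level of 5 genes (vertical axes, CPM) in the 11 clusters (horizontal axis, with the class each was given), 1 point per library and a line at the mean. Cluster 4 stands above clusters 0 and 2 for *Gata6*, *Osr1* and *Tbx2*, and unnamed cluster 9 holds the highest *Tbx3* (300.5 to 556 CPM). The points of cluster 10 rest on as few as 8 cells, in LI replicate 1.

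Between regions, 0 of the 4 genes tested were called in mesothelial-like cells, where edgeR called 1.18% of 10647 genes, 0.517% higher in SI. At an unadjusted p under 0.05 this would have been 1, *Tbx3*, and DESeq2 also called 0. In FB-like cells 1 of 5 was called against 3.56% of 13661 genes (1.06% higher in SI), in SMC-like cells 1 of 4 against 1.29% of 12383 genes (0.323% higher), and in neural-like cells 1 of 3 against 0.488% of 10458 genes (0.172% higher). All fold changes of the genes tested were above 0 except that of *Osr1* in SMC-like cells, while the median log2 fold change over all genes tested was 0.0077 in mesothelial-like, 0.010 in FB-like and 0.0049 in SMC-like cells. In the interaction of class and region 0 of 6 genes were called by edgeR and 0 by DESeq2, where edgeR called 4.53% of 13192 genes, and 3 of the 6, *Gata6*, *Tcf21* and *Tbx3*, had an unadjusted p under 0.05.

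*Tbx3* was higher in SI than in LI in the mesenchyme. In FB-like cells both SI libraries (45.8 and 34.7 CPM) lay above both LI libraries (6.15 and 8.47 CPM), a 6.09-fold difference (log2 2.61 ± 0.25 SE, edgeR, adjusted p = 0.000751). This was called under 14 of 14 alternative settings, with log2 fold changes from 1.92 to 2.82. The lowest came with all other cells, neuron-rich cluster 9 among them, counted as FB-like. It was seen in each of the 3 FB-like clusters, with LI libraries between 4.95 and 9.68 CPM and SI libraries between 27.8 and 51.8 CPM. With each cluster cut to the same number of cells in every library, the log2 fold change was 2.65 (adjusted p = 0.000376). That left 973, 485 and 308 cells per library of clusters 0, 2 and 4. In SMC-like cells the SI libraries (41.7 and 24.1 CPM) again lay above the LI libraries (6.29 and 10.8 CPM), a 4.13-fold difference (log2 2.05 ± 0.35 SE, adjusted p = 0.0446). That call lay close to the threshold: it was lost in cells with 2000 genes (1.98, adjusted p = 0.0504) and at the finer clustering (2.09, adjusted p = 0.0539), and held when the clustering was repeated (2.10, adjusted p = 0.0298). Both SI libraries lay above both LI libraries for 13.3% of all genes tested in FB-like cells and for 12.1% in SMC-like cells. In SMC-like cells the summed SMC markers also ran from 1584 and 5447 CPM in LI to 4723 and 10358 CPM in SI, and their part in the SMC-like result was not tested.

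In mesothelial-like cells *Tbx3* rested on 13, 13, 35 and 11 UMIs. Both SI libraries lay above both LI libraries, as did 16.4% of the genes tested there, and the log2 fold change of 1.40 ± 0.46 was not called (adjusted p = 0.243). Without LI replicate 2 it was 1.48, a fit that leaves 1 LI library, and with each library left out in turn it ran from 0.64 to 1.83. In neural-like cells the SI libraries (135 and 166 CPM) lay above the LI libraries (99.1 and 108 CPM), and the log2 fold change of 0.50 ± 0.20 was not called (adjusted p = 0.547). The difference of the region effect between mesothelial-like and FB-like cells was −1.21 ± 0.40 for *Tbx3* (interaction of class and region, edgeR, adjusted p = 0.0878). It was called without SI replicate 1 (−1.79, adjusted p = 0.0236) and without the low-count filter (−1.27, adjusted p = 0.0404). The difference between neural-like cells and the mesenchyme in the region effect of *Tbx3* was not tested.

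*Tbx2* was higher in SI than in LI in neural-like cells, at 258 and 265 CPM against 86.4 and 115 CPM, a 2.52-fold difference (log2 1.33 ± 0.20 SE, edgeR, adjusted p = 0.0307). Both SI libraries lay above both LI libraries for 21.1% of the genes tested in these cells. Without SI replicate 2 the log2 fold change was 1.35 and the call was lost (adjusted p = 0.120). Cluster 9, which was led by the neuronal genes *Cartpt*, *Stmn2* and *Tubb3* and kept unnamed, showed the same order of regions, with 108.5 and 107.5 CPM in LI and 196 and 196 CPM in SI. In FB-like cells the log2 fold change of *Tbx2* was 0.62 ± 0.22 (adjusted p = 0.199). That value was 0.26 (adjusted p = 0.604) with each FB-like cluster cut to equal cells per library, and without LI replicate 2 it was 0.81. In mesothelial-like cells it was 1.01 ± 0.53 (adjusted p = 0.535), carried by the 12.2 CPM of SI replicate 2, and in SMC-like cells 0.59 ± 0.74 (adjusted p = 0.815), on 3 to 15 UMIs per library.

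*Tcf21*, *Gata6* and *Osr1* were not called between regions in the comparison of 2 against 2 libraries with the low-count filter and without a replicate block. Without the filter, edgeR called *Tcf21* (adjusted p = 8.14e-05), *Gata6* (adjusted p = 0.00124) and *Osr1* (adjusted p = 0.00125) in FB-like cells at log2 fold changes of 0.99, 1.10 and 0.99, and also *Tcf21* and *Gata6* in SMC-like cells. *Tcf21* had log2 fold changes of 0.98 ± 0.48 in FB-like (adjusted p = 0.365), 1.07 ± 0.55 in SMC-like (adjusted p = 0.495), 0.59 ± 0.30 in mesothelial-like (adjusted p = 0.523) and 0.40 ± 0.54 in neural-like cells (adjusted p = 0.933). In all 4 classes LI replicate 2 lay above SI replicate 1, so the regions overlapped, and LI replicate 1 was the lowest library. Without LI replicate 2, which leaves LI replicate 1 as the only LI library, *Tcf21* was called in FB-like (log2 2.23, adjusted p = 2.37e-17), SMC-like (2.38, adjusted p = 0.00333) and mesothelial-like cells (1.15, adjusted p = 0.000428). Without SI replicate 1 its log2 fold change was 1.18 in FB-like and 1.37 in SMC-like cells. With each library left out in turn it ran from 0.30 to 2.23 in FB-like and from 0.40 to 2.38 in SMC-like cells. The same range was 0.15 to 1.15 in mesothelial-like and 0.0092 to 1.77 in neural-like cells. Its interaction of class and region was −0.49 ± 0.19 (adjusted p = 0.187), called without LI replicate 2 (−1.09, adjusted p = 7.08e-05) and without the filter (−0.55, adjusted p = 0.0304).

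*Gata6* in FB-like cells had a log2 fold change of 1.09 ± 0.49 (adjusted p = 0.320). It was 0.51 (adjusted p = 0.658) with each FB-like cluster cut to equal cells per library and −0.065 (adjusted p = 0.953) with cluster 4 left out. The LI libraries held 419 and 308 cells of that *Gata6*-rich cluster and the SI libraries 374 and 659. With each library left out in turn, *Gata6* in FB-like cells ran from 0.23 to 1.76 on the log2 scale. The highest value came without LI replicate 1, and without SI replicate 1 it was 1.62. In mesothelial-like cells its log2 fold change was 0.31 ± 0.23 (adjusted p = 0.724), between 0.12 and 0.48 when each library was left out in turn. The interaction of class and region was −0.73 ± 0.34 for *Gata6* (adjusted p = 0.280). It was called without the filter (−0.79, adjusted p = 0.0135) and with the clustering repeated (−1.13, adjusted p = 0.0273), and it was 0.33 (adjusted p = 0.692) with cluster 4 left out. With each library left out in turn it ran from −1.53, without LI replicate 1, to −0.016, and without SI replicate 1 it was −1.24.

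*Osr1* in FB-like cells had a log2 fold change of 0.98 ± 0.46 (adjusted p = 0.339), 0.91 (adjusted p = 0.273) with each FB-like cluster cut to equal cells per library. It turned to −0.080 without SI replicate 2 and was called without LI replicate 2 (1.30, adjusted p = 8.63e-05) and without SI replicate 1 (1.58, adjusted p = 5.20e-05). In SMC-like cells, on 7 to 25 UMIs per library, it was −0.31 ± 0.59 (adjusted p = 0.892).

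**Figure D4:**
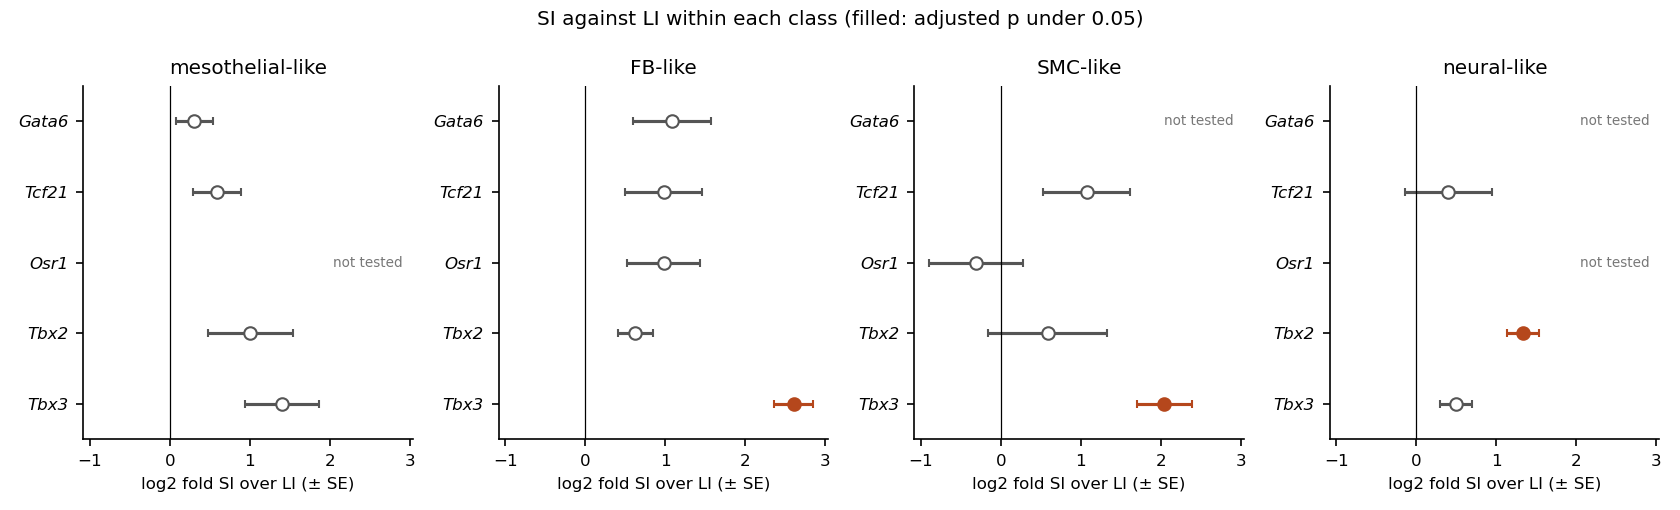
Log2 fold change of SI over LI (horizontal axis, bars ± SE, 2 libraries against 2) for the members tested in each of 4 classes. Filled points passed an adjusted p of 0.05: *Tbx3* in FB-like cells (2.61) and SMC-like cells (2.05), and *Tbx2* in neural-like cells (1.33).

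The neuron-rich cluster 9, of 285 cells, held the highest *Tbx3* levels of any cluster, with 300.5 and 337 CPM in LI and 556 and 472 CPM in SI. All 4 lay above the corresponding levels in neural-like cluster 7 (99.1, 108, 135 and 166 CPM). *Tbx2* did not follow, at 108.5, 107.5, 196 and 196 CPM in cluster 9 against 86.4, 115, 258 and 265 in cluster 7. At 3000 UMIs per cell *Tbx3* was detected in 65.1% ± 6.85 (SD, n = 4) of cluster 9 cells and 33.0% ± 5.67 of neural-like cells, and *Tbx2* in 37.6% ± 6.52 and 41.0% ± 18.5. In neural-like cells 160 thinned cells held UMIs of both genes, where the product of both shares summed over libraries was 148 cells, and in cluster 9 it was 77 cells with a product of 73.8.

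The few cells with *Gata4* or *Tbx18* came mostly from 1 library each. *Gata4* was found in 26 cells, 0 and 2 of LI replicates 1 and 2 and 22 and 2 of SI replicates 1 and 2. Of these 26 cells, 19 (73.1%) also held *Gata6*, where 4.09% of all kept cells did, and 18 (69.2%) held *Wt1*, a mesothelial factor, where 9.64% of all kept cells did. *Barx1*, a homeobox gene of stomach mesenchyme, was found in 15 (57.7%) against 0.534% of all kept cells, all 15 in SI replicate 1. *Tcf21* was in 12 (46.2%, against 57.1% of kept cells) and *Osr1* in 1. Within SI replicate 1 *Tcf21* was in 9 of the 22 *Gata4* cells (40.9%), against 70.2% of the kept cells of that library. By cluster, 14 of the 22 cells of SI replicate 1 lay in unnamed cluster 8, led by *Foxd1*, *Shisa3*, *Kctd12* and *Barx1*, where this library had 21 cells. Those 21 cells held 25 *Gata4* UMIs (86.0 CPM), 77 *Gata6* UMIs in 18 cells (265 CPM) and 7 *Gata5* UMIs in 4 cells (24.1 CPM), above each mesothelial-like library for all 3 genes.

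*Tbx18* was found in 49 cells, 2 and 8 of the LI libraries and 6 and 33 of the SI libraries. Of the 33 in SI replicate 2, 13 (39.4%) also held *Gata6*, where 4.80% of the kept cells of that library did, and 7 (21.2%) held *Osr1*, against 7.67%. The forkhead genes *Foxd1*, known from kidney stroma, *Foxc1* and *Foxc2* were in 10, 11 and 11 of the 33, against 1.23, 1.34 and 1.42% of the library. *Barx1* and the mesothelial gene *Upk3b* were in 0 of the 49 cells. By cluster, 25 of the 33 lay in unnamed cluster 8, where SI replicate 2 had 77 cells, with 52 *Tbx18* UMIs (75.1 CPM). In the repeated clustering no cluster led by *Foxd1* formed, so these cells are given by their own UMIs and not as a cell type. A cell with a UMI of a sparse gene may also be a deeper cell, and these shares were not matched for depth. The part of neighbouring tissue in these cells was not tested.

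**Figure D5:**
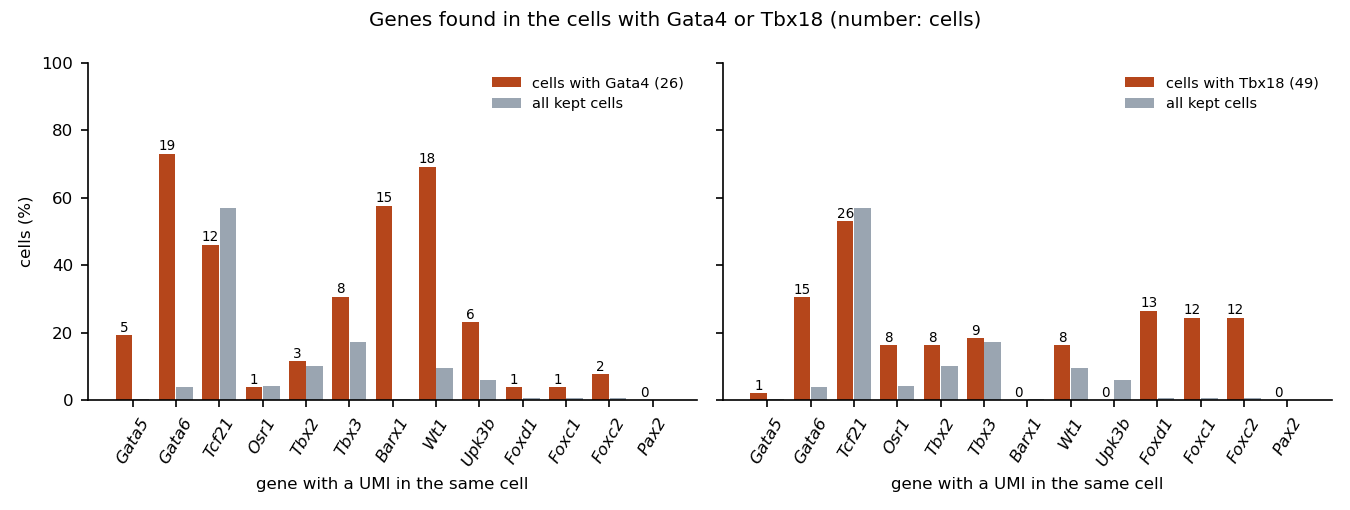
Share of cells (vertical axis, %) with a UMI of the gene named on the horizontal axis, among cells with *Gata4* (left, 26 cells) or *Tbx18* (right, 49 cells) and among all kept cells (grey bars), with the number of cells printed over each bar. *Gata6*, *Wt1* and *Barx1* were in 19, 18 and 15 of the *Gata4* cells, and *Foxd1*, *Foxc1* and *Foxc2* in 13, 12 and 12 of the *Tbx18* cells. Cells are pooled over 4 libraries, so the bars carry no error, and the grey bars mix libraries with few and many of these cells. Within SI replicate 2 *Tcf21* was in 45.5% of the *Tbx18* cells, against 76.4% of the kept cells of that library.

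The related genes of each family give the setting. Of 14 further T-box genes only *Mga* passed the filter in the comparisons of regions and classes, and it was called once, lower in neural-like than in FB-like cells (log2 −0.40, adjusted p = 0.00442). The other 13 had between 1 and 44 UMIs in all kept cells. Of 6 GATA factors and partners, 5 were tested between classes, of which 2 were called in mesothelial-like, 2 in SMC-like and 3 in neural-like cells, against 37.7, 24.0 and 51.8% of all genes tested. *Trps1*, a GATA-type repressor, and *Zfpm2*, a cofactor of GATA4, were lower in mesothelial-like than in FB-like cells (log2 −1.08 and −1.58, adjusted p = 4.61e-06 and 0.0208), opposite to *Gata6*. Both were also lower in neural-like than in FB-like cells (−1.94 and −3.31), as was *Gata3* (−1.22, adjusted p = 0.0460). *Zfpm2* was sparse, at 0.333, 1.17, 2.27 and 3.85 CPM in mesothelial-like cells against 4.44, 6.99, 4.46 and 4.31 CPM in FB-like cells. *Gata3* in neural-like cells held 1.02, 0.441, 0.562 and 0.732 CPM. *Gata2* and *Gata3*, with 262 and 239 UMIs in all, were lower in SMC-like than in FB-like cells (−1.92 and −1.69). Between regions 1 gene of this list was tested in mesothelial-like, 5 in FB-like, 3 in SMC-like and 1 in neural-like cells. In these classes edgeR called 0 of them, against 1.18, 3.56, 1.29 and 0.488% of all genes tested. An unadjusted p under 0.05 was found for 1 in mesothelial-like, 2 in FB-like and 1 in SMC-like cells. DESeq2 called 1 in FB-like and 1 in SMC-like cells, against 4.36 and 2.69% of all genes tested.

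Of 18 further coelomic and lateral plate factors, 12 were tested between mesothelial-like and FB-like cells and 8 were called, against 37.7% of all genes tested. *Wt1*, the classic mesothelial factor, which was also among the 10 genes that led the mesothelial-like cluster, was higher in mesothelial-like cells by 3.77 ± 0.13 on the log2 scale, and *Bnc1* (3.28), *Bnc2* (1.52), *Nr2f1* (1.30) and *Isl1* (1.10) were higher too. *Snai2*, a repressor of epithelial genes, was lower (−2.88), as were *Nr2f2* (−0.70) and *Hand1* (−0.69). The median of the 12 was 0.33, against −0.030 for all genes tested. Between regions, 1 of 13 was called in FB-like cells, against 3.56% of all genes tested. This was *Hand2*, a regulator of gut mesenchyme and enteric neurons that was higher in SI by 0.84 ± 0.18 (adjusted p = 0.0354). In SMC-like cells 1 of 11 was called, *Twist1* (−1.32, adjusted p = 0.0219), against 1.29% of all genes, and in neural-like cells 1 of 5, *Prrx1* (−3.16, adjusted p = 0.0237), against 0.488%, both lower in SI. In mesothelial-like cells 0 of 10 were called by edgeR, against 1.18% of all genes, 0 had an unadjusted p under 0.05 and DESeq2 called 0.

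Between SMC-like and FB-like cells 8 of 12 genes of this list were called, against 24.0% of all genes tested, *Nr2f1* (0.96) and *Snai2* (0.33) higher and *Wt1* (−3.19), *Isl1* (−2.27), *Osr2* (−1.21), *Bnc1* (−0.94), *Nr2f2* (−0.59) and *Hand2* (−0.45) lower on the log2 scale, with a median of −0.48 over the 12. Between neural-like and FB-like cells 12 of 12 were called, against 51.8% of all genes tested. *Prrx1* (4.52), *Hand2* (1.37), which enteric neurons need to mature, and *Nr2f1* (0.95) were higher there. *Hand1* (−6.30), *Twist1* (−6.28), *Snai2* (−5.17), *Msc* (−3.29), *Nr2f2* (−1.67) and *Bnc2* (−1.48) were lower, as were *Wt1* (−6.81), *Bnc1* (−5.99) and *Isl1* (−10.43). *Wt1* stood at 0 and 0.221 CPM in neural-like cells of LI and 0.281 and 0 CPM in those of SI, so its fitted fold depends on the prior count. In the interaction of class and region *Wt1* (0.55) and *Hand2* (−0.56) were called of 12 tested, against 4.53% of all genes, and DESeq2 called 0.

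Over the 16 sums of 4 classes and 4 libraries, each of the 5 genes tested between classes was compared with the 7486 genes whose mean over libraries reached 20 CPM in a class (Pearson correlation of log2 levels with 1 CPM added). The genes most like *Gata6* were *Cpz* (0.98), *Wt1* (0.97) and *Tmem88* (0.96), and those most like *Tcf21* were *Gem* (0.99), *Traf5* (0.98) and *Rdh10* (0.98). For *Osr1* they were *Efhd2* (0.94), *Fli1* (0.91) and *Cux2* (0.88), for *Tbx2* *Ramp3* (0.94), *Hist1h4i* (0.93) and *Coro2b* (0.93), and for *Tbx3* *Rps6* (0.97), *Ran* (0.96) and *Cnbp* (0.96). The 16 sums share libraries and their depth, so these values order genes by pattern and are given as a description only.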

How the data were processed

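Single-cell libraries of E12.5 small and large intestine were analysed, 2 per region. The deposited matrices hold raw UMI counts per gene and cell barcode, which the authors made with Cell Ranger 3.1.0 against mm10 per the labels. A 3′ and a 5′ kit are both named, with no kit given per library. Some labels speak of adult or colonic tissue, and the titles' E12.5 was followed. The members and gene lists were chosen with earlier results of these data known.

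Cells with at least 1000 genes and under 10% mitochondrial counts were kept, and the highest doublet scores (Scrublet in scanpy 1.11.5) were removed at a rate of 0.8% per 1000 cells, 183 to 348 cells per library. Automatic doublet thresholds had marked only 1 to 6 cells per library. Libraries were integrated and clustered with Seurat 5.3.0 (2000 variable genes less the members, their families and Hox genes, 30 components, cell cycle regressed, resolution 0.3). A cluster was named where at least 3 of its 10 leading genes were markers of 1 class, and stayed unnamed with 1 or 2 markers of another class. The remaining clusters with at least 3 FB markers in 10% of cells were called FB-like. This naming rule was set after the clusters were seen. The clusters depended on the numerical kernel beneath them, which was fixed before the reported clusters were seen.

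UMI counts were summed per class and library and tested with edgeR 4.0.16 (R 4.3.3, quasi-likelihood F test, TMM, filterByExpr, Benjamini-Hochberg, two-sided, adjusted p under 0.05). Comparisons of classes and the interaction held the library as a block. Standard errors were taken as the fold change over the square root of F. The fits were tested on simulated counts. For shares of cells, each cell was thinned to 3000 UMIs and shallower cells were left out. The 8 members were always named, and of the family lists every called gene. Alternatives were DESeq2 1.42.0, its size factors, no low-count filter, cells with 2000 genes, resolution 0.6, all other cells as FB-like, each FB-like cluster cut to equal cells per library, a replicate block and leaving out each library. A clustering repeated on another kernel and a fit with the *Anxa2* and *Wnt4* cluster left out of the FB-like class were added after the data were seen. Nothing in the labels says which embryos each library held, so p-values measure the spread between these libraries, which may be technical. Replicates differed by more than sampling noise, with chi-square per degree of freedom of 2.79 to 32.8.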

Additional observations from a re-analysis of the deposited data

Results flagged for a closer look

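Some members reached higher pooled levels in clusters that no comparison used than in any named class. In unnamed cluster 8 (291 cells), led by *Foxd1* and *Shisa3*, *Gata4* stood at 12.2 CPM from 26 UMIs, *Gata5* at 3.74 CPM from 8 UMIs, *Osr1* at 21.04 CPM from 45 UMIs and *Tbx18* at 24.3 CPM from 52 UMIs. The highest named class held 1.07, 1.61, 15.2 and 0.117 CPM of these genes. For *Osr1* this order rested on pooling, since cluster 8 held 3.31 and 24.6 CPM in LI and 3.44 and 31.8 CPM in SI, and lay below FB-like cells in both libraries numbered 1, with 1 UMI in each. For *Gata5* it rested on SI replicate 1, whose 21 cells in cluster 8 gave 7 of the 8 UMIs, while both LI libraries gave 0. *Tbx3* stood at 440.4 CPM in cluster 9 (285 cells), above the 130.4 CPM of neural-like cells. *Osr1* stood at 28.5 CPM, from 42 UMIs, in unnamed cluster 10 (216 cells), which was led by *Pf4* and *Afp*, and 40 of those UMIs came from SI replicate 2. *Tbx18* was also above every named class in unnamed cluster 3, at 0.265 CPM from 5 UMIs, and in unnamed cluster 6, at 0.481 CPM from 4 UMIs, counts too few to order these groups. In cluster 8, 25 of the *Gata4* UMIs came from SI replicate 1 and all 52 *Tbx18* UMIs from SI replicate 2.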

How the results depend on the processing

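Of 437 refitted fold changes of the members, 395 kept their direction and their side of the threshold, 29 passed it only in the alternative, 4 lost it and 9 changed sign. Without SI replicate 2, *Osr1* between regions in FB-like cells turned to −0.080 (range over the libraries left out −0.080 to 1.58), *Tbx3* between SMC-like and FB-like cells to 0.054 (−0.26 to 0.054), and the interaction to −3.98 for *Osr1* (−3.98 to 5.71) and −0.30 for *Tbx2* (−0.30 to 0.81). Between regions in SMC-like cells *Osr1* turned to 0.16 without SI replicate 1 (−1.20 to 0.16) and *Tbx2* to −0.14 without LI replicate 2 (−0.14 to 1.37). With cluster 4 left out of the FB-like class, *Gata6* between regions turned to −0.065, and the interaction to 0.87 for *Gata5* and 0.33 for *Gata6*. Without a low-count filter, 4 members were called between regions in FB-like cells, 3 in SMC-like cells and 3 in the interaction, against 1, 1 and 0, and 7 between mesothelial-like and FB-like cells against 5. These unfiltered fits tested 8 members each and called 6.83, 5.45, 4.10 and 27.3% of all genes. In SMC-like cells 0 members were called between regions with cells of 2000 genes and 0 at resolution 0.6. The repeated clustering, chosen after seeing the data, gave 1 in the interaction. Leaving out each library gave 0 to 2 members in mesothelial-like, 1 to 4 in FB-like, 1 to 2 in SMC-like and 0 to 1 in neural-like cells, and 0 to 2 in the interaction. A left-out library leaves 1 in its region, assumed to vary like the others. The causes were not tested.

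Replicate numbers are shared between regions, but no label ties them to an experiment. Same-numbered libraries deviated together by a correlation of 0.233 to 0.406 over genes. With a replicate block, 2 members were called between regions in mesothelial-like cells (*Tbx3*, *Tcf21*), 3 in FB-like cells (*Tbx2*, *Tbx3*, *Tcf21*) and 2 in SMC-like cells (*Tbx3*, *Tcf21*), and no other call changed. Over all genes the block raised the calls from 126 to 767 in mesothelial-like, 486 to 1367 in FB-like, 160 to 922 in SMC-like and 51 to 598 in neural-like cells. Without the filter they were 409, 1302, 967 and 340, and without LI replicate 2 they were 1250, 1826, 855 and 1294. Without LI replicate 1 they were 308 in mesothelial-like, 856 in FB-like and 246 in neural-like cells, and with cells of 2000 genes 67 and 294 in the first of these classes. SMC-like calls were 333 by DESeq2 and 448 and 267 without SI replicates 1 and 2, and neural-like calls 95, 113 and 25. The interaction gave 597, against 143 by DESeq2 and 304 without LI replicate 1. Calls between SMC-like and FB-like cells were 3106, against 1973 by DESeq2 and 1768, 1755 and 2061 without LI replicate 2, SI replicate 1 and SI replicate 2. Of 64 shares recomputed without thinning or at 2000 UMIs, 32 moved by more than 1 SD. *Gata4*, *Gata5* and *Tbx18* are limited by depth.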
